A study of Mus musculus with 48 samples.

Results

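Fasting and deletion of hepatocyte p110α were crossed in mice kept on a high-fat diet (HFD), and the difference between the genotypes in their response to fasting, the genotype by fasting interaction, is described here gene by gene. It was taken over the 4 HFD groups of the series, LWT_HFD_FED, LWT_HFD_FASTED, LKO_HFD_FED and LKO_HFD_FASTED, chosen by sample title, with 6 liver arrays in each, so that 24 of the 48 arrays of the series entered the contrast. For each gene the log2 difference between fasted and fed LKO livers was reduced by the same difference in LWT livers. A positive interaction therefore means a fasted level that is higher relative to the fed level in LKO than in LWT, whether because a fall is smaller in LKO or because a rise is larger there.

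LKO mice carried floxed p110α alleles together with an albumin-Cre transgene in the heterozygous state, and LWT mice were littermates with the same floxed gene and no Cre. All were males on a C57BL/6J background, 12 weeks old when the diet began, and all received HFD for 12 weeks. The fasted mice went without food for 24 h from Zeitgeber time 16 and the fed mice ate freely, and all were killed at Zeitgeber time 16. The albumin promoter drives Cre in hepatocytes, and whether other liver cells of LKO mice keep p110α was not measured here. Each array measured whole liver RNA, in which fewer cells of a type and less RNA per cell cannot be told apart.

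p110α, encoded by Pik3ca, is the catalytic subunit of the phosphoinositide 3-kinase that carries the signal of the insulin receptor to AKT. In the fed liver this signal favours glycogen storage and the synthesis of fatty acids through the transcription factor SREBP-1c, and it keeps FOXO factors out of the nucleus. In fasting, insulin falls, lipid synthesis is shut down, and fatty acid oxidation, ketone production and glucose output take over under PPARα, glucagon and glucocorticoids. A genotype by fasting interaction asks whether this switch runs to the same extent when hepatocytes lack the kinase subunit.

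The arrays were of similar quality, with 52.8% to 59.3% of spots well above background and no saturated spot among the 24. Each group held 3 arrays from each of 2 washing batches. LKO_HFD_FED replicate 3 stood apart from its group: the root mean square of its deviations from the group means was 0.31 on the log2 scale against at most 0.216 on any of the other 23 arrays, and its weight in the fit was 0.35, the lowest of a range up to 1.72. Total counts are therefore also given without it, as are list counts where leaving it out moved them. The 1 Pik3ca probe kept here (chr3:32364747-32364806, mm9) does not check the genotype, since it was not lower in LKO livers: its group means were 12.74 in fed LWT, 13.25 in fasted LWT, 13.32 in fed LKO and 13.50 in fasted LKO, with an interaction of −0.33 (SE 0.11, limma adjusted p = 0.108). A Cre deletion removes part of a gene, and a probe outside that part does not show it; which exon this probe reads was not determined here, and genotypes are those of the labels. All 11 defining hepatocyte markers were measured, as the tissue label asks, and 0 of them were called, with a median interaction of 0.00.

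Of 20486 genes tested with limma, 280 showed an interaction, meaning a Benjamini-Hochberg adjusted p of at most 0.05 and a difference of more than 1.5-fold between the 2 fasting responses. These were 1.37% of the genes, 148 with a positive interaction (0.722%) and 132 with a negative one (0.644%). Counts of called list members below are to be read against these shares, at which a short list often holds none. Without the fold threshold 690 genes passed (3.37%), 343 positive and 347 negative. Of the 280 genes, 248 were well above background in all 4 groups, and the size of the others rests on levels not well measured. Of 65 called genes past 2-fold, 48 were positive and 17 negative, and with the genes above background in all 4 groups alone these were 39 and 15. Over all genes the interaction had a median of −0.00044 and ranged from −2.06 to 3.58, with a median SE of 0.123. Without LKO_HFD_FED replicate 3 the count was 334, of which 273 were among the 280. Without LKO_HFD_FED replicate 2 it was 182, and 133 genes were called in each of the 24 fits that left out 1 HFD array.

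**Figure D1:**
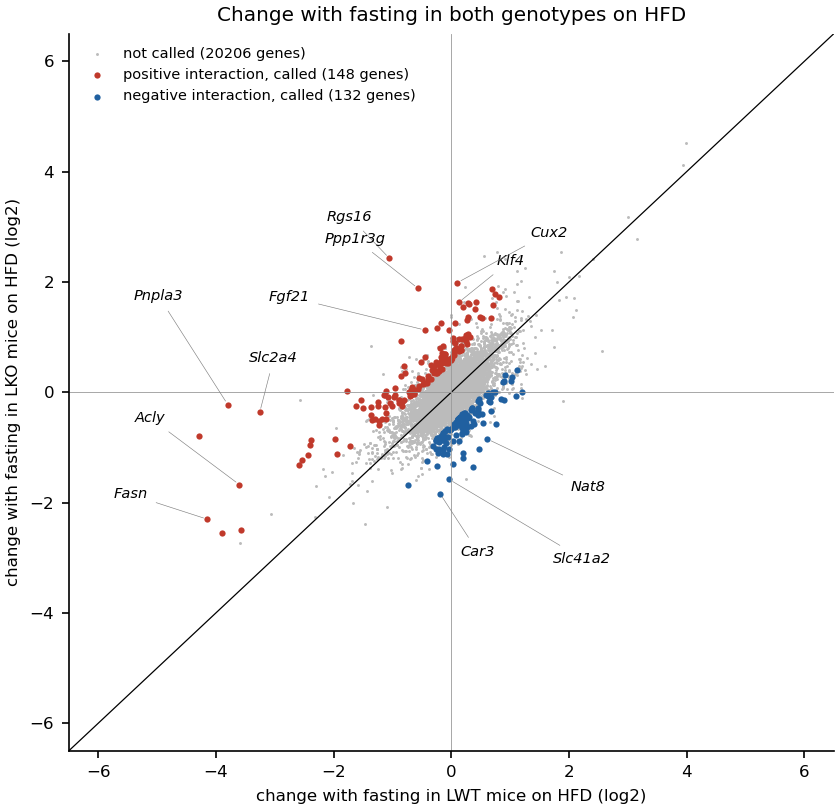
Fitted log2 difference between fasted and fed livers in LWT (horizontal) and in LKO (vertical) on HFD for 20486 genes, with the 148 called positive interactions in red, the 132 called negative ones in blue, and a line of equal response. Fasn, Acly, Slc2a4 and Pnpla3 lie far to the left, with larger negative differences in LWT than in LKO, whereas Rgs16, Ppp1r3g, Klf4 and Cux2 lie above the line with positive differences in LKO, and Car3 and Slc41a2 lie below it.

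The called genes took several shapes, classed here by whether each fitted difference exceeded 1.5-fold, with no test. Among the 148 positive genes, 51 had a fitted increase with fasting in LKO alone and 43 a fitted decrease in LWT alone. A further 14 were lower on fasting in both genotypes and more so in LWT, 5 moved in both with the larger response in LKO, 2 moved in opposite directions, and 33 passed the fold in neither. Read between genotypes, 53 positive genes were lower in LKO than in LWT in the fed state alone and 41 were higher in LKO in the fasted state alone. Among the 132 negative genes, 55 had a fitted decrease with fasting in LKO alone, 20 a fitted increase in LWT alone and 55 passed the fold in neither. The other negative genes were 1 gene that moved in both genotypes with a larger response in LKO and 1 that moved in opposite directions.

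Promoters of 5 called genes that held a searched motif are printed, with the motif in capitals. They show the sequence upstream of the start site in the lipogenic group and in 2 signalling genes. Each is the 250 bases before the RefSeq start (GRCm38.p6), written 5′ to 3′ on the strand of the gene. The windows are chr15:84167566-84167815 on the plus strand for Pnpla3, chr3:129532136-129532385 on the plus strand for Elovl6, chr5:125475623-125475872 on the plus strand for Aacs, chr7:45615491-45615740 on the minus strand for Fgf21 and chr17:26508473-26508722 on the minus strand for Dusp1.
Pnpla3: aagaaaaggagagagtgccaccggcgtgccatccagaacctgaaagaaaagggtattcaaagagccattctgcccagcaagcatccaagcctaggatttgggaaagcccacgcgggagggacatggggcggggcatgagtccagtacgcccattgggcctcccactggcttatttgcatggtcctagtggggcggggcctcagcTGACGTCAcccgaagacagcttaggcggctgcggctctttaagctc
Elovl6: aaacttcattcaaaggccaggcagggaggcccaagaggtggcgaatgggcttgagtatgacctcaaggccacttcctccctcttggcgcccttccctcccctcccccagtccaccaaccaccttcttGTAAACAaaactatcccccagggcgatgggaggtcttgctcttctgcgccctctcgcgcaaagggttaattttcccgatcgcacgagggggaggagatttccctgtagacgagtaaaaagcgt
Aacs: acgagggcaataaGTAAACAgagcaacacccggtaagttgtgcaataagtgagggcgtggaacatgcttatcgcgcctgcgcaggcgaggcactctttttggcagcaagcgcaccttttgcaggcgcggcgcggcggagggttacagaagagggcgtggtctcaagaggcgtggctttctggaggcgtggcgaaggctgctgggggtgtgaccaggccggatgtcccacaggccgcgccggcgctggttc
Fgf21: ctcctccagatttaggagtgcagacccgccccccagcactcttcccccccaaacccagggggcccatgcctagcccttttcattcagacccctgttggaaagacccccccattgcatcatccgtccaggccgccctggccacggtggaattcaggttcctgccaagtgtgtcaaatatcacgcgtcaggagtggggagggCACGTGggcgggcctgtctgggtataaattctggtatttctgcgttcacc
Dusp1: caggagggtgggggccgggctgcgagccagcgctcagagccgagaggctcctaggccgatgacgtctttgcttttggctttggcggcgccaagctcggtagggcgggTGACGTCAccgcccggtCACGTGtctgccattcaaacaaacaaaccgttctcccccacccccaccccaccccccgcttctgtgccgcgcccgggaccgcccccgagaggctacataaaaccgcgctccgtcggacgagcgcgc
The capitals mark a cyclic AMP response element (CRE, TGACGTCA) that begins 46 bases before the start of Pnpla3, a FOXO motif (GTAAACA) 123 bases before that of Elovl6 and 237 bases before that of Aacs, and an E-box (CACGTG) 50 bases before that of Fgf21. In Dusp1 they mark a CRE 143 bases and an E-box 126 bases before the start.

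These letters were searched on both strands of a 300-base window, from 250 bases before to 50 after the start, with no overlap between the motifs. The E-box was found in 16 of 109 called positive genes with a promoter entry (14.7%), in 10 of 90 called negative genes (11.1%) and in 8.09% of all 27025 promoters. The FOXO motif was in 6 positive (5.5%) and 3 negative genes (3.33%) against 4.05% of all promoters. The CRE was in 6 positive (5.5%) and 2 negative genes (2.22%) against 2.03%. The sterol response element TCACNCCAC was in 1 gene of each direction (1.44% of all promoters), and the HNF4 motif CAAAGTCCA in 2 and 1 (0.555%). Of the 7 called genes of de novo lipogenesis, 2 had the FOXO motif, 1 the CRE and 0 the E-box, the sterol element or the HNF4 motif in these letters.

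De novo lipogenesis, the synthesis of fatty acids from citrate, held more called genes than any other list examined. Of 23 measured members, 7 had a called positive interaction and 0 a negative one, against 0.722% and 0.644% of all genes. The median interaction of the list was 0.46 against −0.00044 over all genes, and 18 of 23 members were above 0. The 7 were Pnpla3, Acly, Fasn, Acacb, Elovl6, Acaca and Aacs. Without LKO_HFD_FED replicate 3, 8 of the 23 were called, 7 positive and 1 negative. Of the 22 members well above background in all 4 groups, 6 were called.

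Fasn encodes fatty acid synthase, which builds palmitate (probe at chr11:120668460-120668519, mm9). Its normalized log2 signal ranged from 17.05 to 17.94 (median 17.62) in fed LWT livers and from 12.78 to 14.26 (13.34) in fasted LWT livers. In LKO livers it ranged from 14.25 to 15.42 (14.87) when fed and from 12.12 to 13.07 (12.68) when fasted. Fed LWT livers were far above the rest, fed LKO livers were intermediate and touched the highest fasted LWT liver, and the fasted groups overlapped each other. The fitted difference with fasting was −4.14 in LWT and −2.30 in LKO, which gave an interaction of 1.84 (SE 0.28, limma adjusted p = 6.15e-05).

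Acly encodes ATP citrate lyase, which supplies cytosolic acetyl-CoA. Its signal ranged from 15.70 to 16.37 (median 15.93) in fed LWT, from 12.10 to 12.81 (12.32) in fasted LWT, from 13.45 to 14.08 (13.77) in fed LKO and from 11.56 to 12.52 (12.13) in fasted LKO livers. The order of the groups was that of Fasn, and here the fasted groups alone overlapped. The interaction was 1.93 (SE 0.23, adjusted p = 9.26e-07).

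Acaca, the cytosolic acetyl-CoA carboxylase that makes malonyl-CoA, was read on the same scale. Its range was 13.53 to 14.11 (median 13.90) in fed LWT, 10.98 to 11.96 (11.22) in fasted LWT, 11.96 to 12.47 (12.36) in fed LKO and 10.76 to 11.38 (11.11) in fasted LKO livers. Fed livers were above fasted livers in each genotype with no overlap, and fed LWT were above fed LKO livers. The interaction was 1.30 (SE 0.19, adjusted p = 1.99e-05).

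Elovl6, which elongates palmitate to stearate and whose promoter is printed above, ranged from 14.004 to 14.59 (median 14.31) in fed LWT and from 9.92 to 11.06 (10.26) in fasted LWT livers. In LKO it ranged from 11.98 to 12.98 (12.44) when fed and from 9.90 to 10.28 (9.98) when fasted. The fasted levels of the genotypes overlapped and the fed levels did not. The interaction was 1.34 (SE 0.27, adjusted p = 0.00261).

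Aacs, which makes acetoacetyl-CoA in the cytosol and so returns ketone carbon to lipid synthesis, differed from these in LKO livers. It ranged from 12.76 to 13.24 (median 13.20) in fed LWT and from 11.41 to 12.57 (12.11) in fasted LWT livers, against 10.74 to 11.55 (11.03) in fed and 10.56 to 11.91 (11.28) in fasted LKO livers. The LKO groups overlapped each other, with a fitted difference of 0.02, while the LWT groups did not. The interaction of 1.12 (SE 0.30, adjusted p = 0.0287) lost its call in 7 of the 24 fits without 1 array.

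Acacb, the carboxylase whose malonyl-CoA restrains fatty acid entry into mitochondria, was the least stable of the group. Its signal ranged from 13.09 to 13.65 (median 13.40) in fed LWT, from 10.99 to 12.45 (11.72) in fasted LWT, from 9.45 to 11.28 (10.15) in fed LKO and from 9.32 to 10.80 (9.79) in fasted LKO livers. LWT livers were above LKO livers in the fasted state too, and the LKO groups overlapped. The interaction of 1.37 (SE 0.40, adjusted p = 0.0456) was lost in 15 of the 24 fits without 1 array. It was 2.17 in the first washing batch alone, 0.43 in the second, and 0.30 as a median over its probes, where the call was lost.

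Pnpla3, a lipid droplet acylhydrolase and an SREBP-1c target, was kept through its fed LWT level. It ranged from 7.14 to 10.04 (median 8.99) in fed LWT livers, and its medians were 5.27 in fasted LWT, 5.55 in fed LKO and 5.26 in fasted LKO livers, where single arrays lay between 4.89 and 6.18. Fed LWT livers were above the 3 other groups with no overlap. The probe was well above background on 6 of 6 fed LWT arrays but on 1 of 6 fasted LWT, 4 of 6 fed LKO and 0 of 6 fasted LKO arrays. The fitted interaction of 3.58 (SE 0.46, adjusted p = 4.73e-06) thus rests on differences from a level that was not well measured, so that neither its size nor its rank among genes can be read from it.

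Pnpla5, its neighbour on chromosome 15 and also a lipid hydrolase, was not in the lists and is named after its values were seen. Its range was 8.53 to 10.36 (median 9.97) in fed LWT, 5.08 to 6.07 (5.49) in fasted LWT, 5.58 to 6.45 (6.25) in fed LKO and 5.02 to 5.67 (5.29) in fasted LKO livers. As for Pnpla3, the high values were those of fed LWT livers alone, and 2 of 6 fasted LWT, 4 of 6 fed LKO and 0 of 6 fasted LKO arrays were well above background, so that the size of its fitted interaction is not measured either. Acaca, Elovl6 and Aacs are likewise named with their values known, since the naming rule took the 4 largest called members of each list.

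Other members of the list did not pass. Elovl3, an elongase of male liver that is named after its values were seen, had the most negative value of the list, −1.84 (SE 0.55, adjusted p = 0.0555). Me1, the malic enzyme that supplies NADPH, had an interaction of 0.94 (adjusted p = 0.124). Srebf1, which encodes SREBP-1c, had 0.06 (SE 0.30, adjusted p = 0.958): its signal ranged from 15.08 to 15.82 in fed and 13.22 to 14.42 in fasted LWT livers, and from 14.74 to 15.51 in fed and 12.35 to 14.24 in fasted LKO livers. Fed and fasted Srebf1 levels were thus apart in both genotypes, and the genotypes overlapped in both states. Scd1, the stearoyl-CoA desaturase, had −0.35 (SE 0.35, adjusted p = 0.69), with LWT levels above LKO levels in both states and no overlap. Mlxipl, which encodes ChREBP, had 0.46 (adjusted p = 0.0628), and Pklr, its pyruvate kinase target, −0.10 (adjusted p = 0.92).

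Among 27 lipid droplet and glycerolipid genes, 2 were called, both positive, with a median interaction of 0.10, and 3 without LKO_HFD_FED replicate 3. They were Pnpla3, with the limit given above, and Gpam, the mitochondrial enzyme of the first step of glycerolipid synthesis. Gpam ranged from 14.36 to 15.19 (median 14.64) in fed LWT, 12.93 to 13.97 (13.12) in fasted LWT, 12.74 to 13.27 (13.16) in fed LKO and 12.62 to 13.06 (12.84) in fasted LKO livers. Only fed LWT livers were high, and the other 3 groups overlapped. The interaction was 1.23 (SE 0.22, adjusted p = 0.000568). Cidec, which enlarges lipid droplets, was not called at 0.55 (adjusted p = 0.721), its LKO levels being below its LWT levels in both states.

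Of 24 cholesterol synthesis genes, 1 was called, Pmvk, the phosphomevalonate kinase, at 0.71 (SE 0.19, adjusted p = 0.0302). The list median was 0.22 and 14 members were above 0, and 2 were called without LKO_HFD_FED replicate 3. The Pmvk call was lost in 9 of the 24 fits without 1 array.

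Slc2a4 encodes GLUT4, the insulin-responsive glucose transporter of muscle and fat, and had the smallest adjusted p of the named genes (probe at chr11:69756073-69756132, mm9). In fed LWT livers its signal ranged from 8.64 to 9.78 (median 9.38) and in fasted LWT livers from 6.03 to 6.18 (6.16). In LKO livers it ranged from 6.66 to 7.60 (7.51) when fed and from 6.23 to 7.78 (7.02) when fasted. Fed LWT livers were highest, the LKO groups overlapped each other, and every fasted LKO liver was above every fasted LWT liver. The fitted difference with fasting was −3.26 in LWT and −0.36 in LKO, with an interaction of 2.89 (SE 0.30, adjusted p = 4.32e-08). Within each washing batch the value was 2.85 and 2.94. Adipocytes also express GLUT4, and the summed linear signal of the 6 measured adipocyte markers apart from Car3 had medians of 24580 in fed LWT, 41830 in fasted LWT, 7216 in fed LKO and 4418 in fasted LKO livers, and its part in the result was not tested.

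Among 16 glycogen genes, 1 was called, and 2 without LKO_HFD_FED replicate 3. Ppp1r3g, a glycogen-targeting subunit of protein phosphatase 1, ranged from 7.69 to 8.56 (median 8.203) in fed LWT and from 7.23 to 8.09 (7.55) in fasted LWT livers. In LKO it ranged from 6.00 to 7.92 (6.83) when fed and from 7.89 to 9.46 (8.48) when fasted. The order of fed and fasted livers was thus opposite in the 2 genotypes, although each pair of groups overlapped at least at its edges. The interaction was 2.45 (SE 0.45, adjusted p = 0.000769), from fitted differences of −0.56 in LWT and 1.88 in LKO. The list had a median of 0.16.

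Lists for the neighbouring routes of glucose held no called gene, against 1.37% of all genes. Glycolysis and glucose use had 0 of 26 called (median −0.07) and gluconeogenesis 0 of 18 (median −0.05). Within them Gpi1, the phosphoglucose isomerase, passed the adjusted p without the fold at 0.54 (adjusted p = 0.0262), as did Slc37a4, the transporter of glucose 6-phosphate into the endoplasmic reticulum, at 0.44 (adjusted p = 0.0108). The 33 genes from the insulin receptor to FOXO had 0 called and a median of 0.03, with Pdpk1, the kinase that phosphorylates AKT, at 0.29 (adjusted p = 0.0289).

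**Figure D2:**
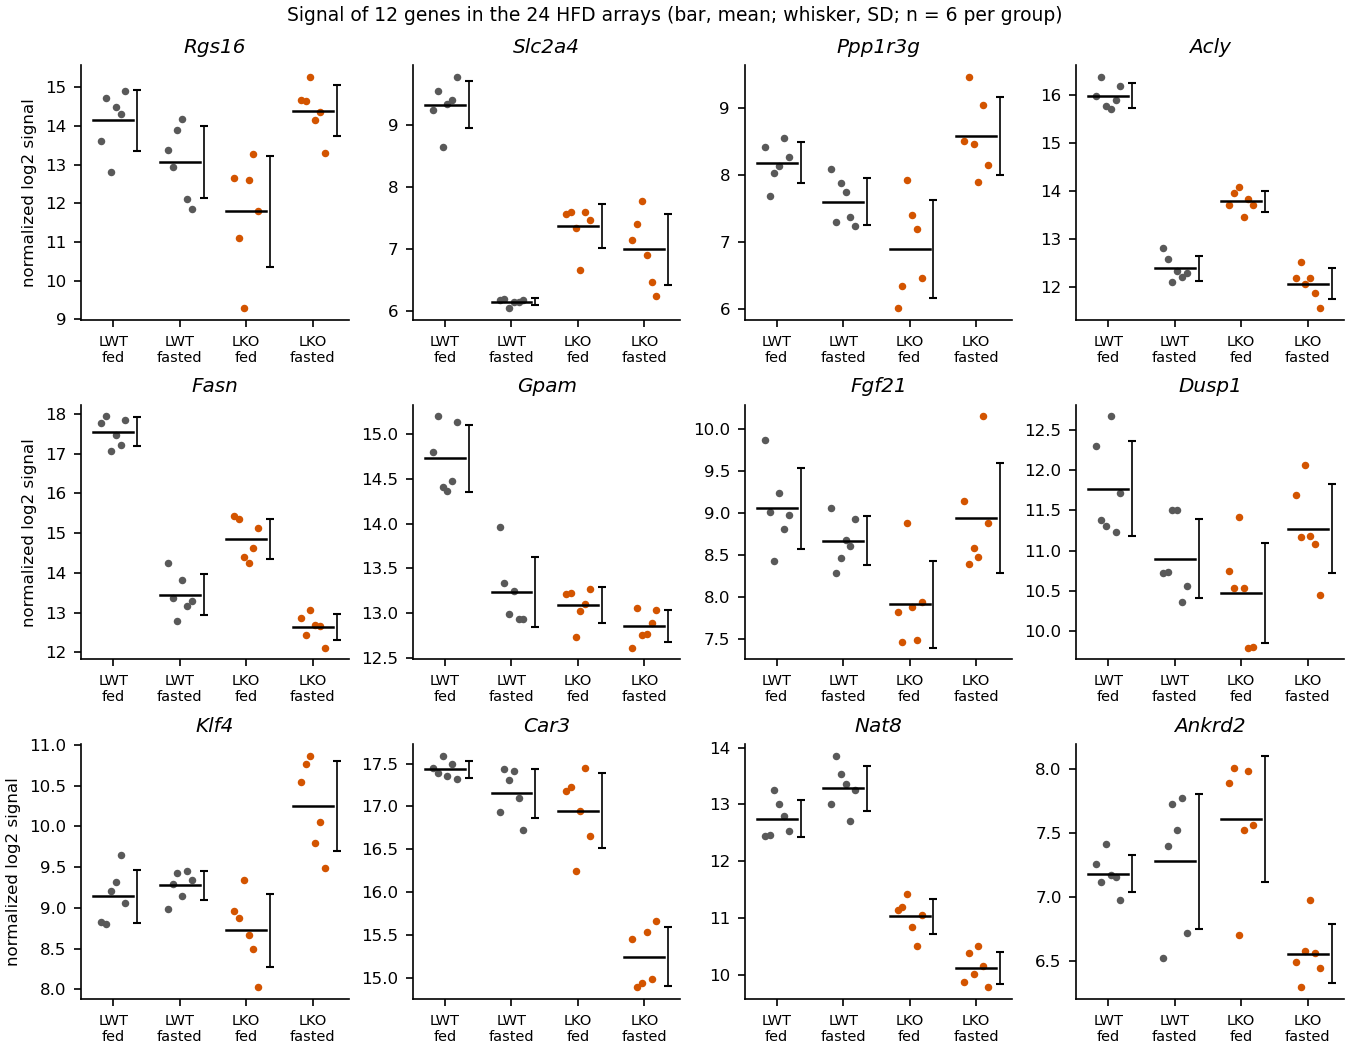
Normalized log2 signal of 12 genes on each of the 24 HFD arrays, by group, with the group mean as a bar and 1 SD as a whisker (n = 6 each). Acly, Fasn, Gpam and Slc2a4 are high in fed LWT livers, Klf4 is high in fasted LKO livers, and Car3 and Ankrd2 are low in fasted LKO livers.

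Rgs16, a regulator of G protein signalling that shortens G protein responses and is known as a fasting and ChREBP responsive gene of liver, had the largest interaction among genes above background in all 4 groups (probe at chr1:155592497-155592556, mm9). It ranged from 12.82 to 14.91 (median 14.39) in fed LWT, from 11.86 to 14.18 (13.16) in fasted LWT, from 9.29 to 13.29 (12.19) in fed LKO and from 13.29 to 15.27 (14.50) in fasted LKO livers. Fed LKO livers were low and spread widely, their highest value meeting the lowest of the fasted LKO livers, which were at the level of fed LWT livers. The fitted difference was −1.05 in LWT and 2.43 in LKO, with an interaction of 3.48 (SE 0.63, adjusted p = 0.000603). It was 3.32 without LKO_HFD_FED replicate 3.

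Gprc5b, an orphan G protein-coupled receptor, was also highest in fed LWT livers. Its signal ranged from 8.17 to 10.42 (median 8.92) in fed LWT and from 6.81 to 7.52 (7.25) in fasted LWT livers, against 5.94 to 7.03 (6.40) in fed and 5.79 to 7.20 (6.54) in fasted LKO livers. The LWT groups did not overlap and the LKO groups did. The interaction was 1.80 (SE 0.38, adjusted p = 0.0034), and 1.15 as a median over its probes.

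Tbc1d31, a TBC domain protein, ranged from 10.74 to 11.39 (median 11.16) in fed LWT, 8.60 to 9.27 (8.69) in fasted LWT, 7.79 to 8.97 (8.54) in fed LKO and 7.32 to 7.94 (7.70) in fasted LKO livers. It was lower in LKO than in LWT livers in both states with no overlap. The interaction was 1.52 (SE 0.25, adjusted p = 0.000219), and 0.91 as a median over its probes.

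Fgf21 encodes the fasting hormone FGF21, secreted by liver under PPARα and ATF4 (promoter printed above). Its range was 8.43 to 9.87 (median 8.99) in fed LWT, 8.28 to 9.06 (8.64) in fasted LWT, 7.46 to 8.89 (7.84) in fed LKO and 8.39 to 10.16 (8.74) in fasted LKO livers. Fed LKO livers were low apart from replicate 3, the array that stands apart, whose 8.89 was the highest of its group, and every pair of groups overlapped. The interaction was 1.57 (SE 0.34, adjusted p = 0.00511) and 1.66 without that array.

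Fgf21 was also a called member of 3 other lists, in which few other genes passed. Fatty acid oxidation and ketogenesis had 1 of 28 called (median −0.09, 20 members below 0), PPARα targets outside oxidation 2 of 23 (median 0.09), and ATF4 and the integrated stress response 1 of 23 (median 0.06). The other PPARα target was Ucp2, a mitochondrial carrier, at 0.63 (SE 0.14, adjusted p = 0.00579), with a call lost in 4 of 24 fits without 1 array. Vnn1, a pantetheinase, was at 0.35 (adjusted p = 0.655) and Cyp4a14, a fatty acid omega hydroxylase, at −0.58 (adjusted p = 0.697).

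Of 28 hepatokines, hormones secreted by liver, 2 were called, both positive, with a list median of −0.00. Besides Fgf21 this was Inhbb, the subunit of activin B. Inhbb ranged from 7.78 to 8.99 (median 8.58) in fed LWT, 8.48 to 9.17 (8.91) in fasted LWT, 8.01 to 9.10 (8.63) in fed LKO and 9.77 to 10.70 (9.90) in fasted LKO livers. The fasted LKO values lay above those of fed LKO and fasted LWT livers with no overlap, and the interaction was 1.32 (SE 0.27, adjusted p = 0.00287).

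Igfbp1, an insulin-repressed binding protein of IGFs and a FOXO target, was not called at 1.69 (SE 0.66, adjusted p = 0.159). It ranged from 12.61 to 15.07 (median 14.20) in fed LWT, 13.87 to 14.98 (14.28) in fasted LWT, 12.52 to 15.55 (14.16) in fed LKO and 15.02 to 16.46 (16.26) in fasted LKO livers. Fasted LKO livers were above fasted LWT livers without overlap, while the fed groups spread widely. Igfbp2 at −0.29 (adjusted p = 0.659), Enho at −0.70 (adjusted p = 0.411), Fgl1 at −0.60 (adjusted p = 0.245) and Fst at −0.42 (adjusted p = 0.396), all secreted factors, were not called either.

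Immediate early genes, which respond within minutes to hours to growth factors, stress and hormones, held 3 called of 21, all positive. Over all genes 0.722% were called positive. The list median was 0.30 and 14 members were above 0, as were 10210 of all 20486 genes. Without LKO_HFD_FED replicate 3, 4 members were called. Dusp1, a phosphatase that switches off MAP kinases and also a glucocorticoid target (promoter printed above), ranged from 11.24 to 12.67 (median 11.55) in fed LWT, 10.36 to 11.51 (10.73) in fasted LWT, 9.79 to 11.42 (10.54) in fed LKO and 10.45 to 12.06 (11.17) in fasted LKO livers. Its groups overlapped, with fasted lower than fed medians in LWT and the reverse in LKO. The interaction was 1.78 (SE 0.41, adjusted p = 0.00925).

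Klf4 and Klf2 are zinc-finger transcription factors. Klf4 ranged from 8.80 to 9.65 (median 9.13) in fed LWT, 8.99 to 9.45 (9.32) in fasted LWT, 8.03 to 9.34 (8.77) in fed LKO and 9.49 to 10.87 (10.30) in fasted LKO livers, with an interaction of 1.503 (SE 0.27, adjusted p = 0.000651). Fasted LKO livers were above fed LKO and fasted LWT livers with no overlap. Klf2 had an interaction of 1.16 (SE 0.23, adjusted p = 0.00196), with medians of 9.83, 9.78, 9.53 and 10.61 in fed LWT, fasted LWT, fed LKO and fasted LKO livers and overlapping groups.

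Maff, a small MAF basic leucine zipper factor, was likewise high in fasted LKO livers alone. It ranged from 7.66 to 8.16 (median 7.87) in fed LWT, 7.52 to 8.53 (8.26) in fasted LWT, 7.19 to 7.999 (7.73) in fed LKO and 8.75 to 9.44 (9.22) in fasted LKO livers. The fasted LKO range was apart from the fed LKO and fasted LWT ranges. The interaction was 1.35 (SE 0.22, adjusted p = 0.000132).

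Thbd, the thrombomodulin of endothelium, had an interaction of 1.404 (SE 0.32, adjusted p = 0.00699). Its signal ranged from 7.91 to 9.62 (median 8.69) in fed LWT, 7.81 to 9.27 (8.34) in fasted LWT, 7.95 to 9.35 (8.67) in fed LKO and 9.09 to 10.65 (10.05) in fasted LKO livers, the last group having the highest median with some overlap. It was 0.73 within the first washing batch and 2.27 within the second, and the call was lost when the 24 HFD arrays were fitted alone.

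Klf2, Klf4 and Thbd are also expressed by endothelial cells. Of 13 endothelial markers 0 were called, 11 had an interaction above 0, and the median was 0.26. Their summed linear signal ranged from 19270 to 25060 (median 23690) in fed LWT, 17590 to 26390 (19410) in fasted LWT, 23740 to 25680 (24050) in fed LKO and 25080 to 28060 (26400) in fasted LKO livers, and its part in the 3 genes was not tested.

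Other called genes of the positive direction came from single lists. Ulk1, the kinase that starts autophagy, was the 1 called of 26 autophagy genes (median 0.08). It ranged from 13.56 to 13.79 (median 13.68) in fed LWT, 12.86 to 13.10 (13.05) in fasted LWT, 12.84 to 13.35 (13.16) in fed LKO and 13.02 to 13.36 (13.18) in fasted LKO livers. Fed LWT livers alone were high, and the interaction was 0.77 (SE 0.12, adjusted p = 8.51e-05). As a median over its probes the value was 0.54, under the fold threshold.

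Cux2, a homeobox factor known from female mouse liver, where the growth hormone pattern sustains it, had a fitted interaction of 1.88 (SE 0.43, adjusted p = 0.00787), whose size depends on levels that were not well measured. It was well above background on 6 of 6 fasted LKO arrays, where it ranged from 6.46 to 8.67 (median 7.24), and on 0, 1 and 1 of 6 arrays in fed LWT, fasted LWT and fed LKO livers, where the medians were 5.22, 5.28 and 5.47. Fasted LKO livers were therefore the 1 group with a measured level, above all fed LKO and fasted LWT arrays. In the list of 24 growth hormone and STAT5 dependent genes 1 was called in each direction, with a median of −0.18, and of the 21 above background in all 4 groups 1 was called. Without LKO_HFD_FED replicate 3 the list had 3 calls, 1 positive and 2 negative. The negative one was Igfals, the acid-labile subunit of the IGF carrier, at −0.64 (SE 0.18, adjusted p = 0.0391), lost in 11 of 24 fits without 1 array. The same gene was the 1 called of 24 FOXO target and IGF axis genes (median −0.05).

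Of 31 cell cycle genes measured, 25 of them above background in all 4 groups, 0 were called, 29 had an interaction above 0 and the median was 0.30. Of 24 endoplasmic reticulum chaperones, also with 0 called, 21 were above 0, and of all 20486 genes 10210. Pcna, the sliding clamp of DNA synthesis, passed the adjusted p without the fold at 0.42 (SE 0.11, adjusted p = 0.0178), and Cdkn1a, which encodes the inhibitor p21, was at 1.495 (adjusted p = 0.139).

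**Figure D3:**
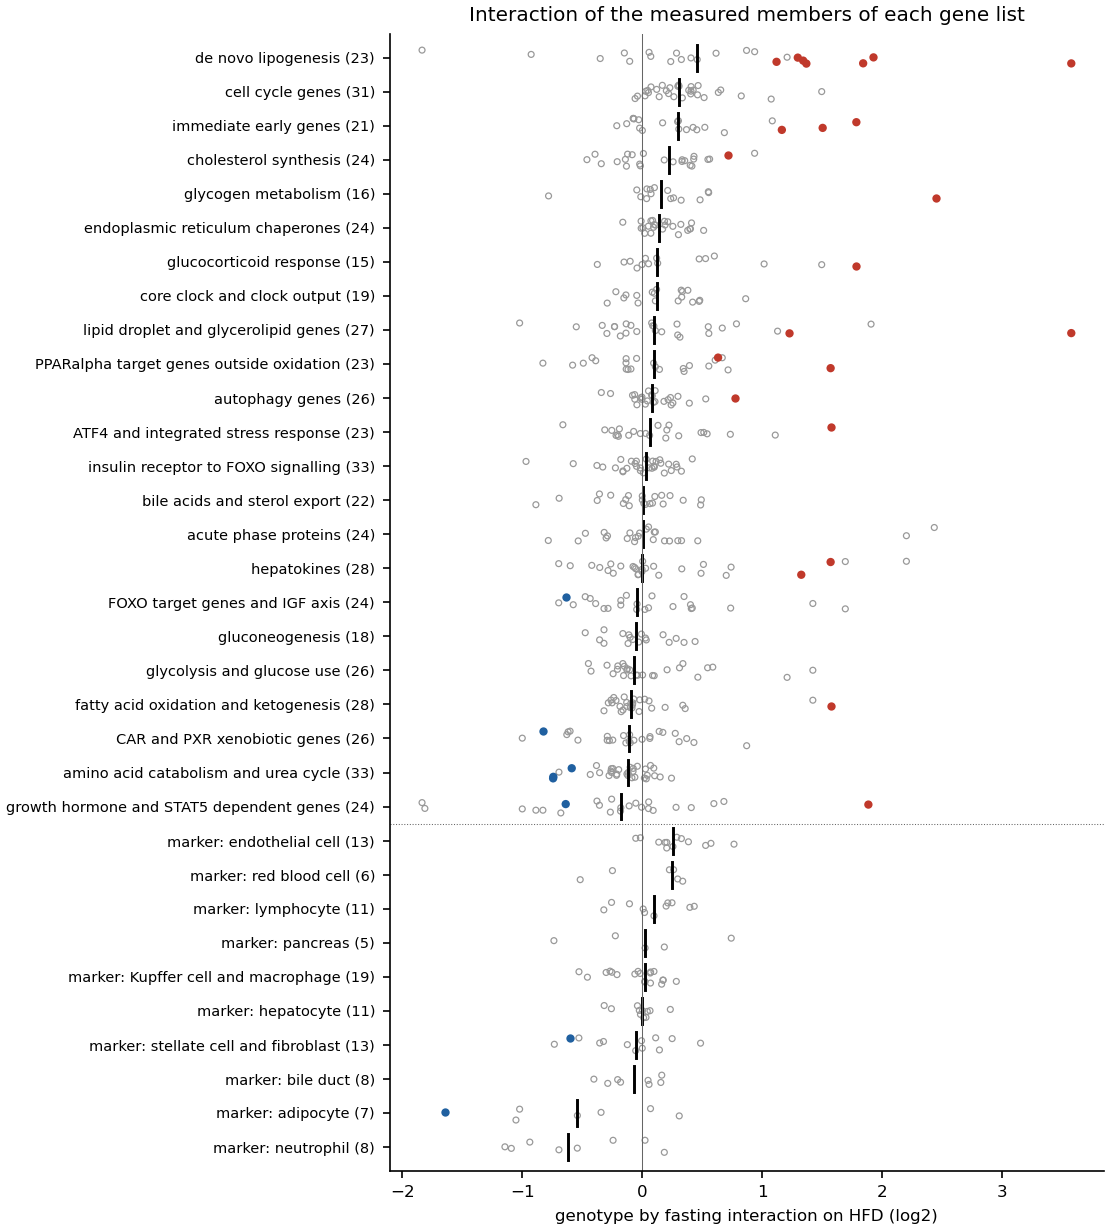
Interaction on HFD (log2) of each measured member of the gene lists, with called positive members in red, called negative members in blue and the list median as a black bar; the number of measured members is in parentheses. De novo lipogenesis holds 7 called members, 29 of 31 cell cycle genes lie above 0 with 0 called, and neutrophil and adipocyte markers have the lowest medians.

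On the negative side, Car3 had the most negative value of the genes eligible as leading genes (probe at chr3:14871781-14871840, mm9). Eligible genes had a RefSeq symbol, were above background in all 4 groups and were called in each of the 24 fits leaving out 1 HFD array. Car3 encodes carbonic anhydrase 3, abundant in adipocytes and in male liver. It ranged from 17.32 to 17.59 (median 17.41) in fed LWT, 16.73 to 17.44 (17.21) in fasted LWT, 16.25 to 17.44 (17.06) in fed LKO and 14.89 to 15.67 (15.22) in fasted LKO livers. Fasted LKO livers were below the fed LKO and fasted LWT livers with no overlap. The interaction was −1.64 (SE 0.22, adjusted p = 7.91e-06), and −4.04 as a median over the probes of the gene, so that its size depends on the probe. It was the 1 called of 7 adipocyte markers (median −0.54, 5 below 0), whose other members summed to higher levels in LWT than in LKO livers in both states, as given for Slc2a4.

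Slc41a2, a magnesium transporter, was highest in fed LKO livers. It ranged from 10.51 to 10.80 (median 10.55) in fed LWT, 10.24 to 11.24 (10.50) in fasted LWT, 11.34 to 12.35 (11.52) in fed LKO and 9.42 to 10.70 (10.098) in fasted LKO livers. Fed LKO livers did not overlap with fed LWT or fasted LKO livers. The interaction was −1.54 (SE 0.32, adjusted p = 0.00287), −1.03 in the first and −2.04 in the second washing batch.

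Nat8 and Cml5 (now Nat8f5) are neighbouring N-acetyltransferase genes on chromosome 6, and their probes may share signal where the sequences are alike. Nat8 ranged from 12.43 to 13.25 (median 12.66) in fed LWT, 12.71 to 13.85 (13.30) in fasted LWT, 10.51 to 11.42 (11.10) in fed LKO and 9.78 to 10.51 (10.08) in fasted LKO livers. LKO livers were below LWT livers in both states with no overlap, and further below in the fasted state. The interaction was −1.46 (SE 0.25, adjusted p = 0.000352) for Nat8 and −1.33 (SE 0.26, adjusted p = 0.00134) for Cml5.

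Ankrd2, an ankyrin repeat protein best known from muscle, ranged from 6.97 to 7.42 (median 7.16) in fed LWT, 6.52 to 7.77 (7.46) in fasted LWT, 6.70 to 8.003 (7.72) in fed LKO and 6.29 to 6.98 (6.53) in fasted LKO livers. The lowest fed LKO value was that of replicate 3, and without that array the fed and fasted LKO ranges were apart. The interaction was −1.39 (SE 0.22, adjusted p = 0.000107), and −1.47 without replicate 3.

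Acat3, a cytosolic acetyl-CoA acetyltransferase, ranged from 13.90 to 14.24 (median 13.99) in fed LWT, 13.75 to 14.13 (13.97) in fasted LWT, 13.57 to 14.24 (14.10) in fed LKO and 12.85 to 13.26 (13.08) in fasted LKO livers. Fasted LKO livers alone were low. The interaction was −0.98 (SE 0.12, adjusted p = 3.22e-06). Hdhd3, a haloacid dehalogenase-like protein, had −1.08 (SE 0.21, adjusted p = 0.00113), with a fasted LKO median of 10.49 against 11.40, 11.16 and 11.89 in fed LWT, fasted LWT and fed LKO livers.

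Ppp1r1b, which encodes the phosphatase inhibitor DARPP-32, and Podn, a small leucine-rich proteoglycan, differed in LWT livers instead. Ppp1r1b ranged from 10.21 to 10.74 (median 10.63) in fed LWT and from 10.85 to 11.44 (11.19) in fasted LWT livers, apart from each other, against 10.19 to 11.25 (10.94) in fed and 10.41 to 10.91 (10.62) in fasted LKO livers, which overlapped. The interaction was −1.02 (SE 0.15, adjusted p = 4.22e-05). Podn had −0.98 (SE 0.22, adjusted p = 0.0067), with LWT medians of 8.24 fed and 8.92 fasted and LKO medians of 8.44 and 8.42.

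Ifi47, a GTPase induced by interferon gamma, Isg15, an interferon-induced ubiquitin-like protein, and Trim14, an adaptor of antiviral signalling, were also among the 12 leading negative genes. Isg15 ranged from 10.94 to 11.65 (median 11.42) in fed LWT, 11.62 to 12.09 (11.76) in fasted LWT, 10.69 to 11.75 (10.98) in fed LKO and 9.85 to 11.31 (10.34) in fasted LKO livers, with an interaction of −0.97 (SE 0.23, adjusted p = 0.0124). Fasted LKO livers were below fasted LWT livers with no overlap, while the fed groups overlapped. Ifi47 was at −1.01 (SE 0.25, adjusted p = 0.0139), with medians of 10.38, 10.46, 10.55 and 9.50 in fed LWT, fasted LWT, fed LKO and fasted LKO livers. Trim14 was at −0.96 (SE 0.20, adjusted p = 0.0034) and at −0.62 as a median over its probes, with medians of 9.85, 10.14, 10.39 and 9.62 in the same order. Within washing batches 1 and 2, Ifi47 was at −0.56 and −1.51 and Isg15 at −0.42 and −1.52, both smaller in the first, while Trim14 was at −1.11 and −0.86.

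Amino acid catabolism and the urea cycle had 3 called of 33, all negative, against 0.644% of all genes. The list median was −0.12 and 24 members were below 0, as were 10276 of all 20486 genes. Agxt, which removes glyoxylate in peroxisomes, was at −0.74 (SE 0.15, adjusted p = 0.00297), and its fed LKO livers (15.23 to 15.82, median 15.43) were above fed LWT livers (14.50 to 14.92, median 14.62) with no overlap, while the fasted medians were 15.03 in LWT and 15.02 in LKO. Hal, the histidine ammonia-lyase, was at −0.74 (SE 0.17, adjusted p = 0.0079) with the same order of fed levels (medians 13.33 in LWT and 13.95 in LKO). Kmo, the kynurenine 3-monooxygenase, was at −0.59 (SE 0.11, adjusted p = 0.000581), just past the fold, and was lost in 10 of 24 fits without 1 array.

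Aldh1a7, a cytosolic aldehyde dehydrogenase, was the 1 called of 26 CAR and PXR genes (median −0.11), of which 5 were called without LKO_HFD_FED replicate 3, all negative. It ranged from 14.13 to 14.44 (median 14.28) in fed LWT, 13.66 to 14.15 (13.81) in fasted LWT, 12.38 to 13.22 (12.90) in fed LKO and 11.47 to 12.00 (11.69) in fasted LKO livers. The fasted LKO group was lowest, apart from all fed LKO and fasted LWT livers, and the interaction was −0.83 (SE 0.18, adjusted p = 0.0052).

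Several other lists showed 0 called genes on HFD, where 1.37% of all genes were called and a short list often holds none. Endoplasmic reticulum chaperones had 0 of 24 (median 0.14), core clock and clock output 0 of 19 (median 0.12), bile acids and sterol export 0 of 22 (median 0.01) and acute phase proteins 0 of 24 (median 0.01). The 15 glucocorticoid response genes had 1 call, Dusp1 (median 0.12), and 2 without LKO_HFD_FED replicate 3. Arntl at −0.29, Cry1 at −0.15, Per2 at 0.33 and Nr1d1 at 0.12, all parts of the clock, had limma adjusted p from 0.206 to 0.888. At an unadjusted p under 0.05, 3478 of the 20486 genes passed.

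Of the markers of other cells in the lists, 2 were called, and called genes outside the lists were not sorted by cell type. The Kupffer cell and macrophage (0 of 19, median 0.02), bile duct (0 of 8, −0.07), lymphocyte (0 of 11, 0.10), pancreas (0 of 5, 0.02) and red blood cell (0 of 6, 0.24) lists had none, and the neutrophil list had 0 of 8 with a median of −0.62 and 6 below 0. The called ones were Car3 in the adipocyte list and Acta2, the smooth muscle actin, in the list of 13 stellate and fibroblast genes (median −0.06), at −0.60 (SE 0.12, adjusted p = 0.00195). The Acta2 call was lost in 7 of 24 fits without 1 array and the value was 0.16 as a median over its probes. Summed bile duct marker signal had medians of 4698 and 4052 in fed and fasted LWT and 1825 and 1419 in fed and fasted LKO livers, and summed neutrophil signal 2061, 2401, 2062 and 1588 in the same order. The part of either in the results was not tested.

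**Figure D4:**
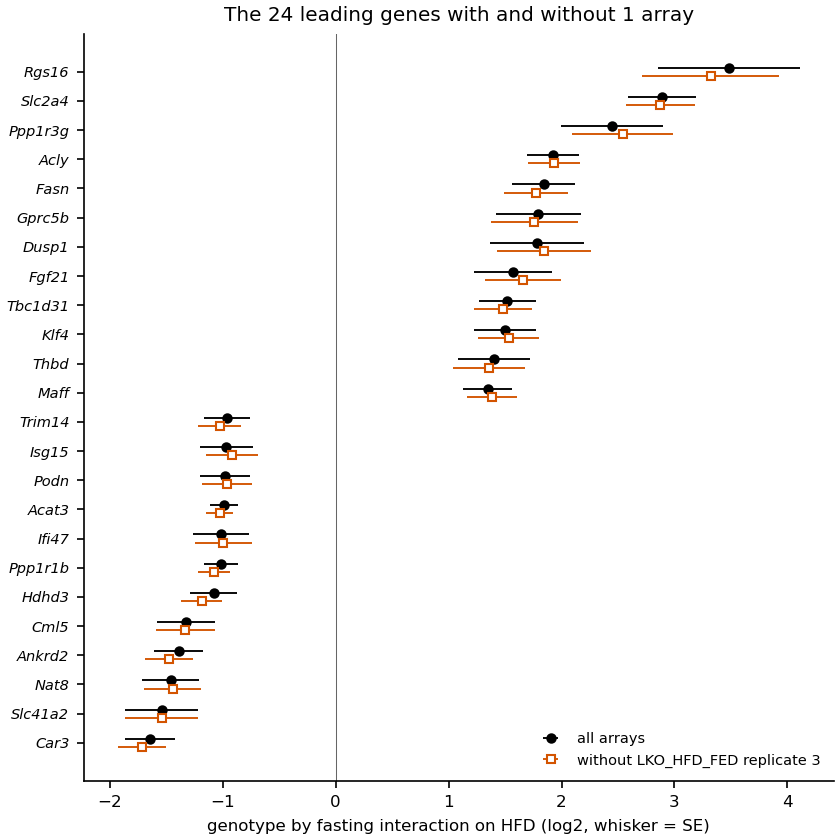
Interaction on HFD (log2) of the 12 leading positive and 12 leading negative genes with a RefSeq symbol, over all arrays (black) and without LKO_HFD_FED replicate 3 (orange). Whiskers are 1 SE. The 2 estimates of each gene lie within 1 SE of each other, for example 3.48 and 3.32 for Rgs16.

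All 24 leading genes, taken from those with a RefSeq symbol, remained called in each of the 24 fits that left out 1 HFD array, as their choice required. Of the 280 called genes, 280 kept their sign in the fits of either washing batch alone, but the same arrays had chosen them. Agreement in sign was therefore largely fixed in advance and is no replication. A fit of 1 washing batch, with 3 arrays in each group, called 44 genes in the first batch and 67 in the second. Of these, 31 and 41 were among the 280.

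The same interaction on the control diet (CTRL), measured on the other 24 arrays with no array in common, gave 269 called genes (1.31%). In all, 31 genes were called on both diets, with the same sign in each case, which is 11.1% of the HFD calls and 11.5% of the CTRL calls. Among the 280 HFD genes, 241 had the same sign on CTRL diet. Of these 241, 232 had the larger size on HFD, the diet on which they had been chosen. On CTRL diet the median interaction was 0.28 for the 148 positive genes and −0.30 for the 132 negative ones, against 0.80 and −0.71 on HFD. Over all 20486 genes the correlation between the diets was 0.24 (Pearson) and 0.15 (Spearman), as a description over genes that share arrays within each diet.

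**Figure D5:**
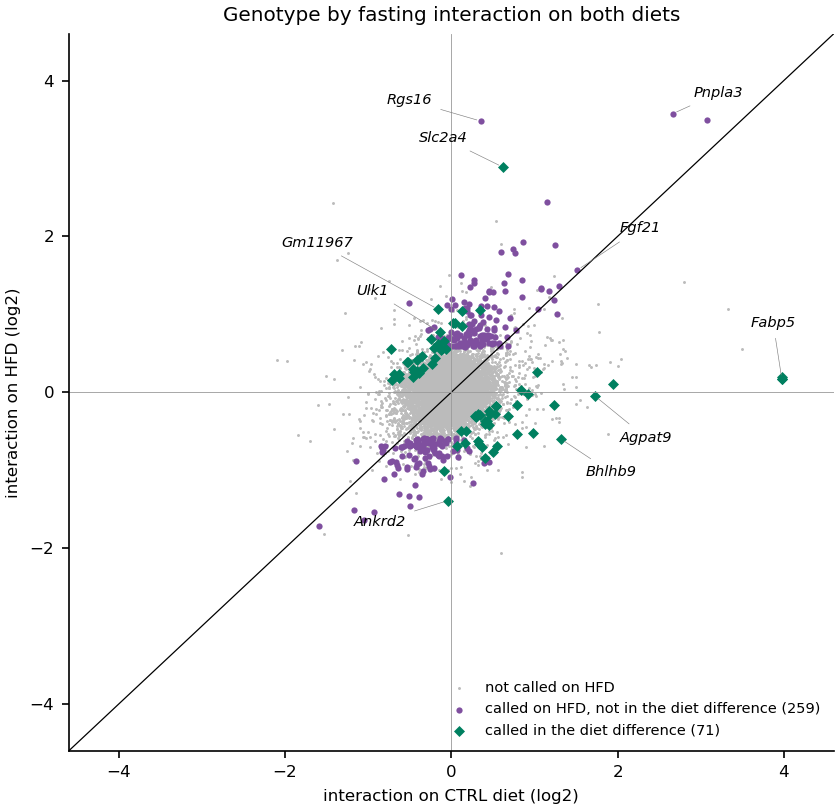
Genotype by fasting interaction on CTRL diet (horizontal) and on HFD (vertical), in log2, for 20486 genes, with the 71 genes called in the difference between the diets as green diamonds, other genes called on HFD in purple and a line of equal values. Slc2a4 lies above the line, Fgf21 lies near it, and Fabp5 lies far to the right with an interaction near 0 on HFD.

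The difference between the diets was tested directly, as a diet by genotype by fasting contrast over 48 arrays. It called 71 genes (0.347%), 32 positive and 39 negative, with 2865 at an unadjusted p under 0.05. Of the 71, 21 were also called on HFD and 18 on CTRL diet. Without LKO_HFD_FED replicate 3 it called 105, all 71 among them, but other single arrays moved the count too. It was 23 without LKO_HFD_FED replicate 2, 28 without LWT_HFD_FASTED replicate 2, 30 without LKO_HFD_FASTED replicate 3, 34 without LWT_HFD_FASTED replicate 3, 35 without LKO_HFD_FED replicate 5, 36 without LWT_HFD_FASTED replicate 4, 45 without LKO_HFD_FED replicate 1 and 140 without LWT_HFD_FASTED replicate 6.

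Among the leading genes and the called list members on HFD, 4 passed this contrast. Slc2a4 was larger on HFD than on CTRL diet, where it was 0.62, by 2.28 (adjusted p = 0.00779), and Ulk1, at −0.14 on CTRL diet, by 0.91 (adjusted p = 0.00728). Ankrd2, at −0.04 on CTRL diet, differed by −1.35 (adjusted p = 0.0304), and Ppp1r1b, at −0.09, by −0.93 (adjusted p = 0.0309). For Rgs16, at 0.36 on CTRL diet, the difference of 3.12 did not pass (adjusted p = 0.089).

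Fgf21, at 1.52 on CTRL diet and 1.57 on HFD, was called on both diets, as were Pnpla3, Pnpla5, Acly, Elovl6, Acacb, Gpam, Inhbb, Car3 and Hal among the genes named above. The diet difference for Fgf21 was 0.05 (adjusted p = 0.98). For Fasn it was 1.099 (adjusted p = 0.19), the interaction being 0.74 on CTRL diet and not called there. The de novo lipogenesis list had 6 called members on CTRL diet and a median of 0.40, and 0 of its 23 members were called in the diet difference.

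The list median of fatty acid oxidation genes differed in sign between the diets. It was −0.09 on HFD and 0.36 on CTRL diet, where 4 of 28 were called, and 3 of 28 were called in the difference, all negative, against 0.347% of all genes. These were Hadha, of the mitochondrial trifunctional protein, at −0.75 (adjusted p = 0.0297), Acaa1a, the peroxisomal thiolase, at −0.71 (adjusted p = 0.0359), and Slc25a20, the carnitine-acylcarnitine carrier, at −0.69 (adjusted p = 0.0359). Decr1, the dienoyl-CoA reductase, which is not in the list, was at −0.72 (adjusted p = 0.0296). On HFD itself none of the 4 was called: Hadha was at −0.28 (adjusted p = 0.209), Acaa1a at −0.18 (adjusted p = 0.497), Slc25a20 at −0.24 (adjusted p = 0.296) and Decr1 at −0.18 (adjusted p = 0.476). All 4 were named after their values were seen.

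Lipid droplet and PPARα genes outside oxidation also had higher CTRL medians, 0.53 and 0.51, with 6 called in each list, against 0.10 and 0.09 on HFD. Chaperones of the endoplasmic reticulum had a median of −0.44 on CTRL diet and 0.14 on HFD, with 0 called in the diet difference.

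The genes with the largest differences between the diets were chosen by rule from those with a RefSeq symbol that were above background in all 8 groups. Fabp5, a fatty acid binding protein, had an interaction of 0.17 on HFD (adjusted p = 0.898) and 3.98 on CTRL diet, a difference of −3.81 (adjusted p = 0.000286). On HFD its medians were 10.92, 10.32, 11.45 and 11.24 in fed LWT, fasted LWT, fed LKO and fasted LKO livers, with overlap throughout. Bhlhb9 differed by −1.91 (adjusted p = 0.0165), and Agpat9 (now Gpat3), a glycerol-3-phosphate acyltransferase, by −1.77 (adjusted p = 0.0477), with −0.05 on HFD and 1.73 on CTRL diet.

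In the positive direction Slc2a4 was followed by Hsd17b6, an enzyme of androgen metabolism, which differed by 1.29 (adjusted p = 0.0481) and had an interaction of 0.56 on HFD (adjusted p = 0.178). Gm11967, a predicted gene, differed by 1.23 (adjusted p = 0.0354) and was called on HFD at 1.07 (SE 0.20, adjusted p = 0.00124). On HFD Gm11967 ranged from 9.19 to 9.59 (median 9.45) in fed LWT, 8.67 to 9.26 (8.96) in fasted LWT, 7.54 to 8.04 (7.73) in fed LKO and 7.81 to 8.85 (8.37) in fasted LKO livers. Fed LKO livers were lowest, apart from fed LWT livers.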

How the data were processed

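Liver RNA was labelled with Cy3 by the authors and hybridised to 1-colour Agilent SurePrint G3 mouse arrays, and the deposited scanner files hold spot intensity from Agilent Feature Extraction 10.10.1.1 (version from the submitters' processing notes). The deposited log2 table made by the authors served as an alternative. Here the median intensity was used: outlier spots were left out, log2 values of 1 probe averaged, and probes kept when well above background on 5 of 6 arrays of a group (30793 of 56605). The study's methods state a filter without its rule. Washing batch was corrected, values quantile normalized, and 8 group means fitted over 48 arrays with limma 3.58.1 and array weights (R 4.3.3). The brightest probe stood for a gene. Members and lists were chosen with earlier results of these data known. Named were the 12 leading genes in each direction. They had a RefSeq symbol, were above background in all 4 groups and were called in each fit without 1 array. D9Wsu90e and AK037423, each with an interaction of 1.44, lacked a symbol and were left out. Also named were up to 4 called genes of each list (the smallest adjusted p where 0 were called), genes the study discusses, and 3 genes in each direction of the diet contrast. RefSeq (GRCm38.p6) named 14103 of 20486 genes by accession and 1464 by symbol, and 4919 kept the file's name. On simulated data 83 of 100 interactions of 1 and 99 of 100 of 1.5 (log2) were recovered over 20486 genes with 6 false calls. The 24 arrays per diet limit the precision. The values of 1 list member are not reported here.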

Additional observations from a re-analysis of the deposited data

Results flagged for a closer look

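Within the 4 HFD groups, 344 sets of 6 arrays (the named genes by group) were checked for a highest or lowest array far from the nearest other, and 32 were found where chance gives about 5%. LKO_HFD_FED replicate 3 accounted for 8 of them: it was highest of its group for Fgf21 at 8.89 and Scd1 at 15.72, and lowest for Ankrd2 at 6.70, Acat3 at 13.57, Kmo at 14.01, Slc37a4 at 14.58, Decr1 at 15.23 and Slc25a20 at 10.39. In fed LKO livers the others were Slc2a4 at 6.66, Mylip at 9.74 and Cd3e at 9.20 in replicate 4, Slc41a2 at 12.35 and Selk at 13.78 in replicate 6, and Cml5 at 9.62 in replicate 5. In fed LWT livers, replicate 1 was apart for Igfals at 9.25, Klf2 at 9.14, Camp at 8.89, Igfbp2 at 11.42 and Fst at 7.70, and replicate 3 for Acat3 at 14.24, Isg15 at 10.94, Fcgr2b at 10.16 and Per2 at 11.15, with Slc41a2 at 10.80 in replicate 6.

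In fasted LWT livers replicate 1 was apart for Tbc1d31 at 9.27, Cry1 at 6.66 and Fabp5 at 11.19, replicate 3 for Slc2a4 at 6.03 and Agpat9 at 11.74, replicate 2 for Maff at 7.52 and replicate 5 for Ifi47 at 11.05. In fasted LKO livers it was Ifi47 at 10.62 in replicate 4. All values are normalized log2 signals.

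The interaction differed between the diets by a direct limma test for 71 genes. Among the named genes the difference, HFD minus CTRL diet on the log2 scale, was 2.28 for Slc2a4, 1.29 for Hsd17b6, 1.23 for Gm11967, 0.91 for Ulk1, −0.69 for Slc25a20, −0.71 for Acaa1a, −0.72 for Decr1, −0.75 for Hadha, −0.93 for Ppp1r1b, −1.35 for Ankrd2, −1.77 for Agpat9, −1.91 for Bhlhb9 and −3.81 for Fabp5.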

How the results depend on the processing

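Against 280 called genes, the interaction on HFD called 183 with no filter on dim probes, 168 with no array weights, 44 and 67 in washing batch 1 or 2 alone, 65 at 2-fold and 152 at an adjusted p of 0.01, and 182 to 334 without 1 HFD array. The diet contrast (71 called) gave 8 with no filter, 20 with no batch correction, 8 with no array weights, 0 in either washing batch alone, 17 at 2-fold, 10 at an adjusted p of 0.01, 38 with no weights and LKO_HFD_FED replicate 3 left out (chosen after seeing the data), and 23 to 140 without 1 HFD array (CTRL arrays were not left out). The causes were not tested, apart from the fewer arrays or stricter limits themselves. Other settings stayed within 1.5 times: 332 with processed signals (43.1% positive against 52.9%), 243 with normexp, 266 with median scaling, 264 with the deposited table (263 shared) and 235 with the HFD arrays alone. Replicate numbers did not pair samples (mean correlation of deviations 0.03 over 36 pairs, 8 above 0.1), and a replicate block gave 268 calls, 253 shared, and 51 in the diet contrast. Among named genes the replicate block ended the calls of Acacb, Aacs and Kmo. A washing batch block ended that of Acacb, and a slide block that of Kmo. The calls of Kmo, Pmvk, Igfals, Acta2 and Ucp2 were lost with no array weights, and those of Kmo, Pmvk, Acacb, Igfals, Acta2 and Thbd with the HFD arrays alone. Signs of called genes held in all 280 under median scaling and normexp, 278 with processed signals and 277 with probe medians. Reversed values were Acta2 0.16 and Acaa1a 0.0035 (median over probes), Slc4a1 0.10, Decr1 0.038 and Acaa1a 0.026 (batch 2), Scd1 0.10, Arntl 0.016 and Fabp5 −0.15 (batch 1), Srebf1 −0.086 (processed signals), −0.036 (median scaling), −0.036 (batch 1) and −0.15 to 0.27 without 1 array, Pklr 0.0065 (no filter), 0.16 (no weights), 0.22 (batch 2) and −0.26 to 0.039 without 1 array, Nr1d1 −0.013 (processed), −0.37 (batch 1) and −0.023 to 0.26 without 1 array, and Agpat9 0.041 (no weights), 0.14 (batch 1) and −0.20 to 0.10 without 1 array. All of these but Acta2 were not called. Dim probes such as Pnpla3 and Cux2 are limited by background.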

Other observations

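Hamp2 and Hamp, which encode forms of the iron hormone hepcidin, had interactions of 2.43 (adjusted p = 0.309) and 2.20 (adjusted p = 0.56), the largest of the acute phase list, without passing. Hsd3b5, a male-predominant steroid dehydrogenase, was at −1.81 (adjusted p = 0.405). These 3 were named after their values were seen.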
